A study of Homo sapiens with 20 samples.

Results

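The genes described here encode amino acid transporters of 7 solute carrier (SLC) families, measured in myeloma cells with and without resistance to proteasome inhibitors. They are all rows of the deposited expression table whose symbol is SLC1A, SLC3A, SLC6A, SLC7A, SLC36A, SLC38A or SLC43A followed by a number. SLC7A11, SLC1A4 and SLC1A5 were set aside, and SLC7A6OS, the gene on the strand opposite SLC7A6, was not counted. The rule gave 51 of the 18305 genes in the table, with 18 of family SLC6, 10 of SLC38, 9 of SLC7, 5 of SLC1, 4 of SLC36, 3 of SLC43 and 2 of SLC3.

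Plasma cells and the myelomas that arise from them make and secrete large amounts of immunoglobulin, so their demand for amino acids is high, and proteasomes return amino acids to the cell by degrading proteins. Uptake rests on carriers that differ in substrate and driving force. The SLC3 proteins are heavy chains that pair with SLC7 light chains and bring them to the surface, the SLC38 and SLC6 carriers use the sodium gradient, the SLC36 carriers use protons, the SLC1 members kept here carry glutamate, and the SLC43 carriers are facilitative. Some members, among them SLC38A9, SLC38A7 and SLC36A1, work in the lysosomal membrane, where amino acids are sensed by the mTORC1 pathway.

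RNA was sequenced from 4 human cell lines, RPMI-8226, AMO1 and L363 from myeloma and the B-lymphoblastoid line ARH-77. Wild-type (WT) cells of each line were compared with derived cells resistant to bortezomib (BtzR), and for AMO1 and L363 also with cells resistant to carfilzomib (CfzR), both of which inhibit the proteasome. Resistant cells were grown in 90 nM of their drug and WT cells without it, all in RPMI-1640 with serum and added glutamine, so that resistance and the presence of drug cannot be told apart. Each of the 10 groups had 2 libraries, described as biological replicates, and each resistant group comes from a single parental line.

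The values are FPKM, which count sequenced fragments relative to the length of the transcript and the size of the library, and the depth behind them is unknown. They summed to 457317 to 494850 per library, with 10455 to 11023 genes at 1 FPKM or more. The B-cell markers MS4A1, CD22, PAX5 and CD79A were at most 1.70 FPKM in the myeloma lines and 33.6 to 272 in ARH-77. Plasma-cell markers separated them less well. PRDM1 was at 11.3 to 41.9 in the myeloma lines and 0.41 to 1.67 in ARH-77, and SDC1 at 38.2 to 3266 and 8.4 to 9.9. The ranges overlapped for IRF4 (60.7 to 244 and 87.2 to 109) and XBP1 (63.15 to 733 and 74.3 to 102). They also overlapped for TNFRSF17 (4.93 to 174 and 18.4 to 21.3) and CD38 (2.43 to 56.7 and 2.86 to 17.4). The 2 libraries labelled AMO1 CfzR were close to L363 and not to AMO1. Against L363 WT, 0.856% of tested genes were called higher and 0.802% lower, and against AMO1 WT 7.88% and 9.21%. They are therefore called the libraries labelled AMO1 CfzR and are treated apart.

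Groups were compared with limma on log2(FPKM + 1), fitted over all 20 libraries. A gene was tested when it reached a group mean of 1 FPKM in at least 1 group, and called when its p, adjusted over all 13089 tested genes (Benjamini-Hochberg), was under 0.05 and its log2-fold change was at least 1 in size. Of the 51 transporter genes 26 were tested, and 15 of these reached 1 FPKM in every group. The other 11 passed through some groups only, among them SLC7A8, which reached 1 FPKM in AMO1 BtzR alone and for which a difference was thus built into the filter. The added 1 FPKM makes fold changes of such low genes smaller than the ratio of their levels.

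A few carriers held most of the expression of these families. The 51 genes summed to between 427 and 1194 FPKM per library, or 0.0934% to 0.249% of the library's total. The sum was highest in AMO1 WT, at 1154 and 1194 FPKM, and lowest in ARH-77 WT, at 475 and 427. By mean over the 10 groups the leading genes were SLC38A5, SLC7A5, SLC3A2, SLC38A1, SLC43A3, SLC38A2, SLC7A1, SLC38A10, SLC7A6 and SLC43A1, in that order, from 147 FPKM for SLC38A5 to 13.9 for SLC43A1.

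**Figure D1:**
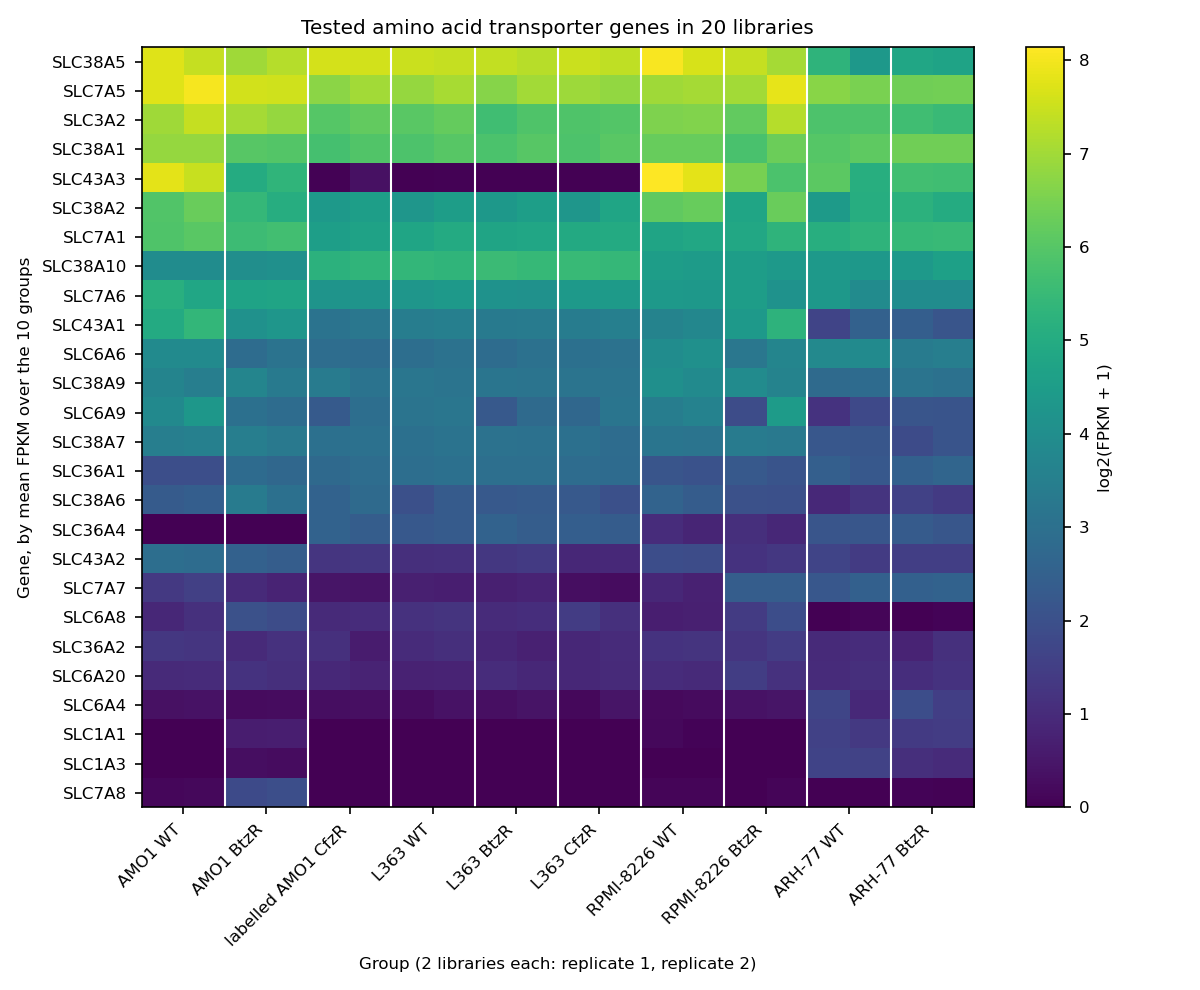
Levels of the 26 tested transporter genes, as log2(FPKM + 1) on the colour scale, with 1 column for each of the 20 libraries and 1 row for each gene, ordered by mean FPKM. SLC7A5, SLC3A2 and SLC38A1 are bright in all groups, and SLC38A5 is less bright in ARH-77 than in the myeloma lines. SLC43A3 is dark in L363 and in the libraries labelled AMO1 CfzR, and SLC36A4 is dark in AMO1 WT and AMO1 BtzR.

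Before resistance, the parental lines already differed in most of these carriers. A moderated F test over the 4 WT groups, together with a largest difference between group means of at least 1 on the log2 scale, called 21 of the 26 tested genes, where 52.2% of all tested genes were called. The other 5 were SLC38A1, SLC7A6, SLC7A8, SLC6A20 and SLC36A2, of which SLC38A1 and SLC7A6 passed the F test (adjusted p = 5.5e-05 and 0.00022, limma) with largest differences of 0.91 and 0.82. Among the 21, SLC1A1, SLC1A3 and SLC6A4 passed the filter through ARH-77 groups alone. For them a difference between lines was built in, and their calls lend no support.

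SLC43A3 differed most between the parental lines. This carrier belongs by sequence with facilitative amino acid carriers but is known for moving purine nucleobases. It was at 222 and 175 FPKM in AMO1 WT, 281 and 223 in RPMI-8226 WT and 67.6 and 33.5 in ARH-77 WT, and was listed at 0 and 0.04 in L363 WT. Its relatives SLC43A1 (LAT3) and SLC43A2 (LAT4), which carry large neutral amino acids, were both highest in AMO1 WT. SLC43A1 was at 30.7 and 41.0 FPKM there, 11.6 and 12.7 in RPMI-8226 WT, 9.97 and 10.5 in L363 WT and 2.15 and 4.81 in ARH-77 WT. SLC43A2 was at 6.65 and 6.32 FPKM in AMO1 WT and between 1.14 and 2.79 in the WT libraries of the other lines.

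Among the sodium-coupled neutral carriers of family SLC38, SLC38A5 was lower in ARH-77 WT than in every myeloma WT library. This carrier, which exchanges glutamine, serine, glycine and histidine, was at 170.4 to 269 FPKM in the 6 WT libraries of the myeloma lines and at 38.2 and 19.1 in ARH-77 WT (adjusted p of the F test = 2.7e-08, limma). SLC38A2, an amino acid carrier that cells raise when starved, was at 60.3 and 76.2 FPKM in AMO1 WT and 69.9 and 75.6 in RPMI-8226 WT. In L363 WT it was at 18.2 and 22.3 and in ARH-77 WT at 20.9 and 32.5. SLC38A1, a close relative that takes up glutamine, kept a narrower range, from 57.6 to 116 FPKM over the WT libraries.

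The intracellular carriers followed other orders. SLC38A10 was at 40.7 and 38.8 FPKM in L363 WT, above the 14.5 to 22.1 of the other lines. SLC38A9, the arginine sensor of the lysosome, was at 15.7 and 13.9 FPKM in RPMI-8226 WT, 11.7 and 10.1 in AMO1 WT, 8.09 and 7.69 in L363 WT and 6.04 and 6.18 in ARH-77 WT. SLC38A7, a lysosomal glutamine carrier, was at 3.65 and 3.57 FPKM in ARH-77 WT and at 7.04 to 10.6 in the myeloma lines. The proton-coupled carrier SLC36A4 was listed at 0 in both AMO1 WT libraries, at 1.06 and 0.79 FPKM in RPMI-8226 WT and at 3.46 to 4.02 in L363 WT and ARH-77 WT. Its relative SLC36A1, a proton-coupled carrier of the lysosome, was also lowest in AMO1 WT and highest in L363 WT, at 2.90 and 2.86 against 6.67 and 7.04 FPKM.

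The cationic amino acid carrier SLC7A1 (CAT1), which brings in arginine and lysine, was at 59.2 and 65.1 FPKM in AMO1 WT and between 25.8 and 38.3 in the WT libraries of the other lines. The glutamate carriers SLC1A1 and SLC1A3 were higher in ARH-77 WT than in myeloma WT cells, and SLC6A8 was lower. SLC1A1 was at 1.99 and 1.57 FPKM and SLC1A3 at 2.08 and 2.04 in ARH-77 WT, and neither exceeded 0.14 in a myeloma WT library. The creatine carrier SLC6A8 was at 0.02 and 0.07 FPKM in ARH-77 WT and at 0.59 to 1.33 in the myeloma lines. SLC6A8 and SLC7A5 have near-identical pseudogene copies, so their values are uncertain to the extent that reads were split, and SLC7A6 overlaps the antisense gene SLC7A6OS.

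The 25 genes below the filter had low values in every library. SLC7A14 had the highest mean over the groups, at 0.36 to 0.75 FPKM. SLC7A2, a cationic carrier, reached 0.58 and 0.52 in L363 CfzR and 0.02 in both L363 BtzR libraries. SLC6A5, a glycine carrier, was at 0.63 and 0.59 in RPMI-8226 WT and 0.10 and 0.14 in RPMI-8226 BtzR, and SLC6A15 reached 0.26 to 0.41 in ARH-77 alone, with at most 0.01 elsewhere. SLC3A1, the second heavy chain, did not exceed 0.12 FPKM and its light chain SLC7A9 did not exceed 0.10. Others (SLC1A2, SLC1A6, SLC1A7, SLC36A3, SLC38A3, SLC38A4, SLC38A11, SLC6A2, SLC6A3, SLC6A11, SLC6A12, SLC6A13, SLC6A14, SLC6A16, SLC6A17, SLC6A18, SLC6A19 and SLC7A4) had highest values between 0.01 and 0.85 FPKM, the last in SLC6A16.

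The CD98 heterodimers take up large neutral amino acids, among them leucine, in exchange for glutamine. SLC3A2 is the CD98 heavy chain and SLC7A5 (LAT1) the light chain with the highest level. SLC7A5 was at 82.0 to 261 FPKM over the 20 libraries and SLC3A2 at 45.2 to 172. The ratio of SLC7A5 to SLC3A2, both scaled by transcript length, stayed between 1.33 and 2.19 with a median of 1.73. SLC7A5 made up 80.8% to 91.5% of the summed FPKM of the 5 light chains that met the rule (SLC7A5, SLC7A6, SLC7A7, SLC7A8 and SLC7A9), with SLC7A11, which the rule set aside, not counted. The light chain SLC7A6 was at 14.4 to 34.0 FPKM, and the levels of SLC7A7 and SLC7A8 are given with the comparisons in which they were called.

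**Figure D2:**
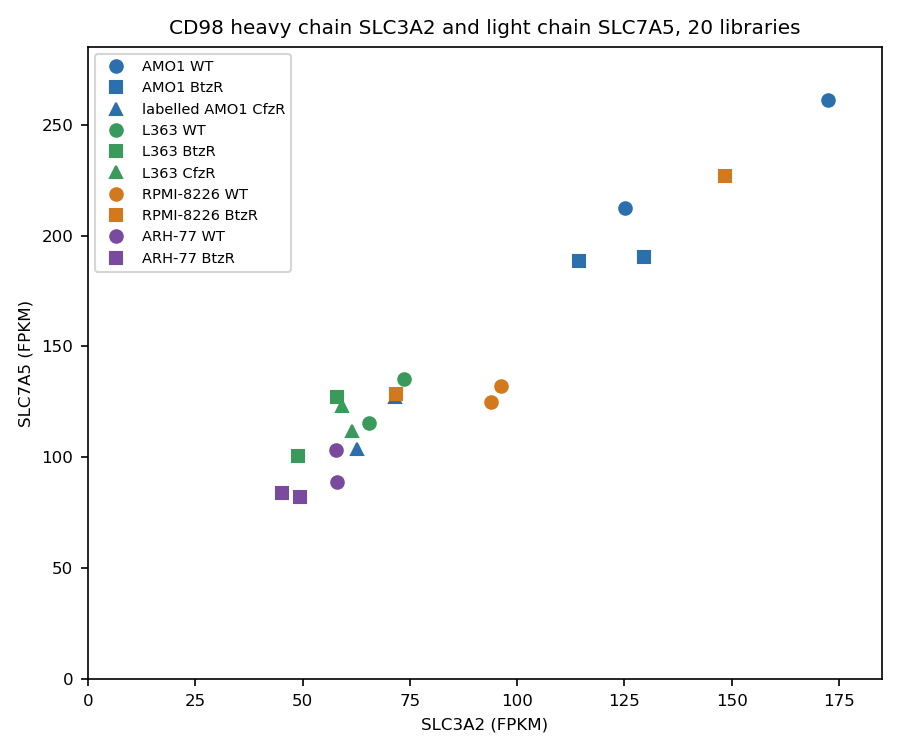
SLC7A5 against SLC3A2, both in FPKM on linear axes from 0, with 1 point for each of the 20 libraries, coloured by line and shaped by WT, BtzR or CfzR. The points lie along 1 band, with AMO1 WT, AMO1 BtzR and replicate 2 of RPMI-8226 BtzR at its upper end.

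Neither CD98 gene was called in a resistant line against its own WT cells. In AMO1 SLC7A5 was at 212 and 261 FPKM in WT and 190.2 and 189 in BtzR cells (log2-fold change -0.31 ± 0.20, SE, n = 2 and 2, adjusted p = 0.22, limma). SLC3A2 was at 125 and 172 FPKM in AMO1 WT and 129.6 and 114 in BtzR cells (-0.27 ± 0.23, adjusted p = 0.37, limma). In L363 SLC7A5 was at 115 and 135 FPKM in WT, 101 and 127 in BtzR and 123 and 112 in CfzR cells. In RPMI-8226 the BtzR replicates stood apart, with SLC7A5 at 129 and 227 FPKM against 125 and 132 in WT cells. In ARH-77 it was at 103 and 89.0 FPKM in WT and 82.0 and 83.9 in BtzR cells.

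AMO1 BtzR cells differed from AMO1 WT in 2 of the 26 tested genes, 1 higher and 1 lower, where 4.61% of all tested genes were called higher and 4.57% lower. SLC7A8 rose and SLC43A3 fell. In bulk RNA a change in the share of cells that express a gene and a change in RNA per cell cannot be told apart.

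SLC7A8 (LAT2), a CD98 light chain that exchanges neutral amino acids including small ones, was at 0.11 and 0.13 FPKM in AMO1 WT and 2.54 and 2.90 in AMO1 BtzR. The log2-fold change was 1.73 ± 0.059 (SE, n = 2 and 2; adjusted p = 1.7e-11, limma) on the log2(FPKM + 1) scale and 3.68 with a pseudocount of 0.1 FPKM. As the gene passed the filter through AMO1 BtzR alone, a difference was built in and its p lends no support. No library outside AMO1 BtzR exceeded 0.13 FPKM. The gene was listed at 0 in all 8 libraries of L363 and of the libraries labelled AMO1 CfzR, and it did not exceed 0.07 in RPMI-8226 BtzR or ARH-77 BtzR. Even in AMO1 BtzR it remained far below SLC7A5.

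SLC43A3 was at 222 and 175 FPKM in AMO1 WT and 31.5 and 38.9 in AMO1 BtzR, without overlap. Its log2-fold change was -2.46 ± 0.26 (SE; adjusted p = 2.6e-06, limma), the lowest among the 26 genes.

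Further genes passed the adjusted p but not the fold threshold, 11 in addition to those called, which makes 13 of 26 with an adjusted p under 0.05 where 51.2% of all tested genes had one. SLC38A1 was at 115 and 116 FPKM in WT and 63.6 and 60.9 in BtzR cells (log2-fold change -0.88 ± 0.13, adjusted p = 7.4e-05). The taurine carrier SLC6A6 was at 13.9 and 13.8 FPKM in WT and 6.34 and 7.53 in BtzR cells (-0.91 ± 0.13, adjusted p = 4.0e-05). SLC43A1 was at 30.7 and 41.0 FPKM in WT and 16.5 and 18.6 in BtzR cells (-0.98 ± 0.26, adjusted p = 0.0064). In each of these the BtzR libraries lay below both WT libraries, with values just short of the threshold.

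On the higher side, SLC36A1 was at 2.90 and 2.86 FPKM in WT and 6.15 and 5.64 in BtzR cells (0.83 ± 0.098, adjusted p = 7.1e-06), and SLC6A8 was at 0.88 and 1.2 in WT and 3.06 and 2.75 in BtzR cells (0.94 ± 0.14, adjusted p = 5.4e-05). SLC38A6 was at 4.08 and 4.35 FPKM in WT and 9.43 and 7.03 in BtzR cells (0.81 ± 0.16, adjusted p = 0.00065). The glutamate carrier SLC1A1 was at 0 and 0.01 FPKM in WT and 0.56 and 0.59 in BtzR cells, a level below the filter. SLC38A2 (60.3 and 76.2 FPKM in WT, 42.2 and 32.4 in BtzR cells) and the glycine carrier SLC6A9 (13.4 and 18.7 in WT, 7.0 and 6.33 in BtzR cells) missed the adjusted p, at 0.053 and 0.096, though SLC6A9 was called in a fit of the 4 compared libraries alone (-1.14, adjusted p = 0.018). Their standard errors were pooled over all 20 libraries. These include RPMI-8226 BtzR, whose replicates lay far apart for SLC38A2 (26.4 and 76.5 FPKM) and SLC6A9 (2.69 and 21.3). The median log2-fold change was -0.23 over the 26 genes and -0.0017 over all tested genes.

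Leaving out replicate 2 of AMO1 BtzR raised the count from 2 to 5 of 26, with SLC6A6, SLC43A1 and SLC38A6 added, and a pseudocount of 0.1 FPKM raised it to 7, with SLC43A1, SLC36A1, SLC6A8, SLC1A3 and SLC1A1 added. SLC7A8 and SLC43A3 were called in both.

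**Figure D3:**
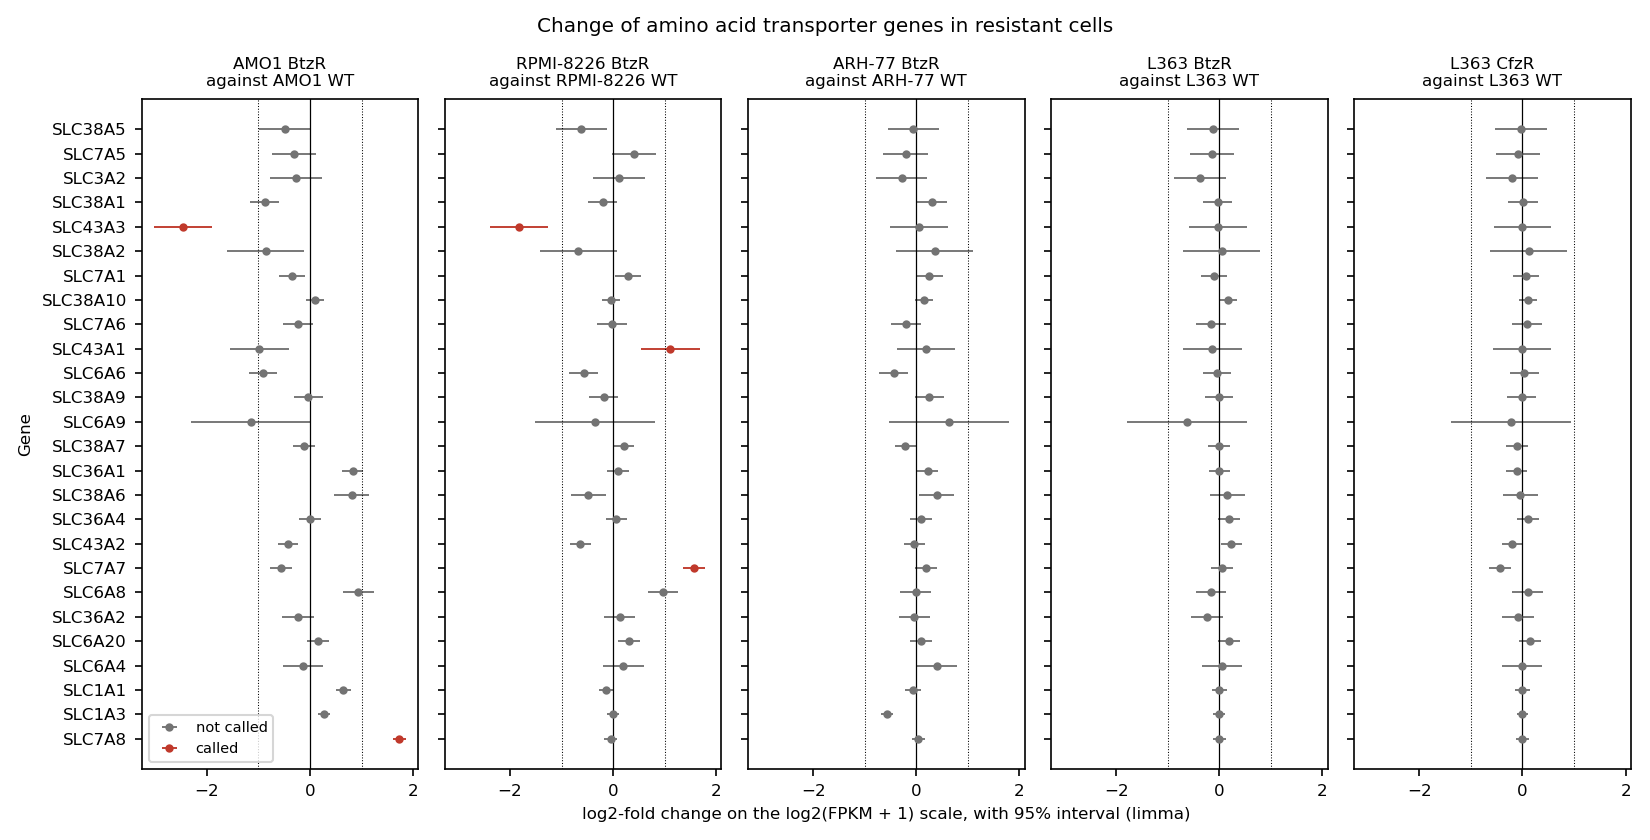
Log2-fold changes of the 26 tested genes on the log2(FPKM + 1) scale, in 1 panel for each of 5 comparisons of resistant with WT cells. Points are limma estimates, bars are 95% intervals, dotted lines mark changes of 1 and -1, and red marks called genes, which number 2 in AMO1 BtzR, 3 in RPMI-8226 BtzR and 0 in the other panels.

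RPMI-8226 BtzR cells differed from RPMI-8226 WT in 3 of the 26 genes, 2 higher and 1 lower, where 5.91% of all tested genes were called higher and 7.92% lower. SLC7A7 and SLC43A1 rose and SLC43A3 fell. The median log2-fold change was -0.018 over the 26 genes and 0.052 over all tested genes.

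SLC7A7 (y+LAT1), the CD98 light chain that exports cationic amino acids in exchange for neutral ones, was at 0.87 and 0.69 FPKM in WT and 4.24 and 4.25 in BtzR cells. The log2-fold change was 1.56 ± 0.10 (SE, n = 2 and 2; adjusted p = 5.1e-09, limma). The BtzR level was within the range of ARH-77, where SLC7A7 was at 3.64 to 4.96 FPKM in the 4 libraries, and above every other myeloma library, of which the highest was at 1.89 in AMO1 WT. The light chain gained in AMO1 BtzR, SLC7A8, was at 0.02 and 0.07 FPKM here, and SLC7A7 was at 0.95 and 0.74 in AMO1 BtzR against 1.56 and 1.89 in AMO1 WT (-0.56 ± 0.10, adjusted p = 0.00030).

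SLC43A3 was at 281 and 223 FPKM in RPMI-8226 WT and 88.7 and 55.5 in BtzR cells (-1.82 ± 0.26, adjusted p = 3.6e-05, limma), so that both BtzR libraries lay below both WT libraries. SLC43A1 was at 11.6 and 12.7 FPKM in WT and 19.99 and 37.5 in BtzR cells (1.11 ± 0.26, adjusted p = 0.0024). This call rests on replicate 2 of RPMI-8226 BtzR, since the log2-fold change was 0.67 (adjusted p = 0.049) without it, and a fit of the 4 compared libraries alone gave an adjusted p of 0.064.

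Among genes below the fold threshold, SLC6A8 was at 0.59 and 0.65 FPKM in WT and 1.65 and 2.79 in BtzR cells (0.97 ± 0.14, adjusted p = 3.1e-05), close to its difference in AMO1. SLC43A2 was at 2.79 and 2.69 FPKM in WT and 1.30 and 1.52 in BtzR cells (-0.64 ± 0.093, adjusted p = 4.1e-05). SLC6A6 was at 14.7 and 16.0 FPKM in WT and 8.31 and 11.9 in BtzR cells (-0.57 ± 0.13, adjusted p = 0.0016). With the called genes these were among 9 of 26 with an adjusted p under 0.05, where 54.3% of all tested genes had one.

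**Figure D4:**
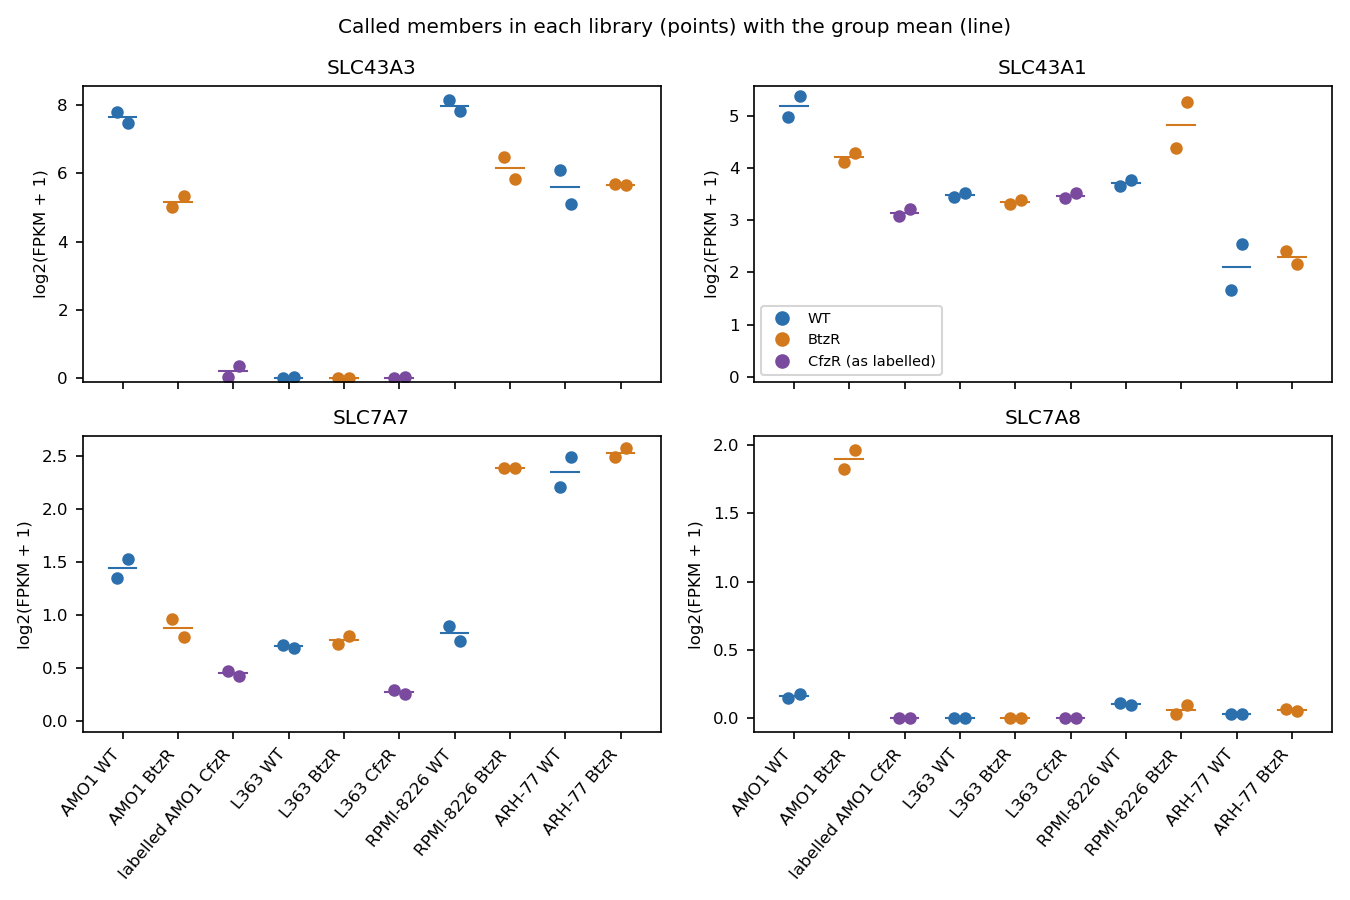
Levels of the 4 genes called between BtzR and WT cells, as log2(FPKM + 1), with a point for each of the 20 libraries, a line at the group mean and colours for WT, BtzR and CfzR. SLC43A3 is lower in BtzR than in WT cells of AMO1 and RPMI-8226 and near 0 in L363, SLC7A7 is raised in RPMI-8226 BtzR to the level of ARH-77, and SLC7A8 stands clear of 0 in AMO1 BtzR only.

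The replicates of RPMI-8226 BtzR agreed less well for these carriers than those of other groups. The median gap between replicates was 0.30 on the log2(FPKM + 1) scale over the 26 genes and 0.15 over all tested genes. In the other groups the gap over the 26 genes was 0.067 to 0.19. Over all tested genes the largest median gap was that of ARH-77 WT, at 0.21. The gap exceeded 1 for 3 genes in RPMI-8226 BtzR and for none in the other 9 groups. SLC6A9 was at 2.69 and 21.3 FPKM, SLC38A2 at 26.4 and 76.5, and SLC3A2 at 71.7 and 148. In each of them replicate 2 was the higher.

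Genes of the amino acid response, chosen after their values were seen, also differed between these replicates. The transcription factor ATF4 was at 209 and 626 FPKM in the replicates of RPMI-8226 BtzR, and its target ASNS, the asparagine synthetase, was at 67.1 and 234. SESN2 was at 8.5 and 72.3, CHAC1 at 0.48 and 21.8 and DDIT3 at 3.73 and 19.1. Among the carriers left out by the rule, the cystine transporter SLC7A11 was at 4.01 and 21.5 FPKM in the same libraries and the glutamine transporter SLC1A5 at 116 and 202. Such gaps were not limited to RPMI-8226 BtzR. In AMO1 WT CHAC1 was at 11.4 and 41.9 FPKM, SESN2 at 22.1 and 46.8 and ASNS at 80.6 and 125. In ARH-77 WT ASNS was at 59.6 and 141 and DDIT3 at 9.17 and 24.2. No transporter gene had a gap over 1 in either group, but some came close in ARH-77 WT. There replicate 2 minus replicate 1 was -0.99 for SLC43A3, -0.96 for SLC38A5 and 0.88 for SLC43A1, on the log2(FPKM + 1) scale. The part of these genes in the carriers' values was not tested. Without replicate 2, SLC38A2 and SLC6A9 were also called lower than in RPMI-8226 WT (log2-fold changes -1.43 and -1.64), and SLC43A1 was not called.

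**Figure D5:**
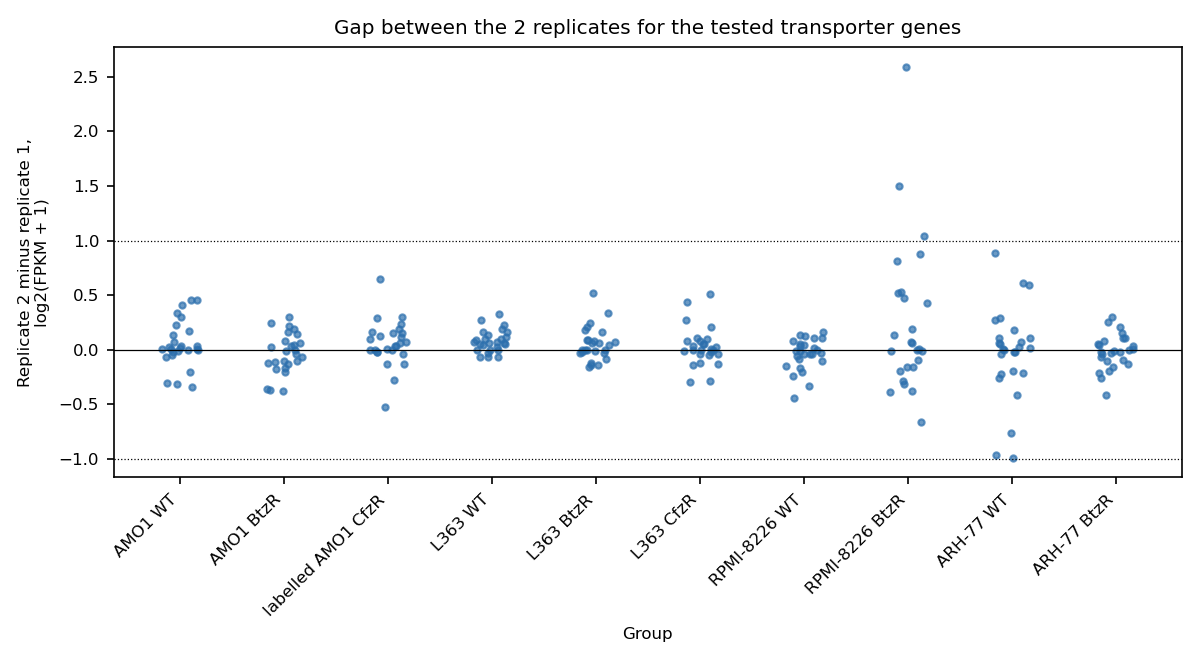
Difference between replicate 2 and replicate 1 of each group on the log2(FPKM + 1) scale, with 1 point for each of the 26 tested genes and dotted lines at 1 and -1. Points above 1 occur in RPMI-8226 BtzR only, where SLC6A9, SLC38A2 and SLC3A2 lie, and the points of ARH-77 WT are spread more widely than those of ARH-77 BtzR.

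Promoter sequence is shown for the genes that carry the changes in AMO1 BtzR and RPMI-8226 BtzR. Of these 4 genes SLC43A1, SLC7A7 and SLC7A8 were matched to RefSeq windows (GRCh38.p14) that run from 250 bases before to 50 bases after an annotated start. SLC43A3 was not searched. The 4 motifs sought on both strands were TGATGNAA (the amino acid response element bound by ATF4), TGACTCA (the AP-1 site), TGACGTCA (the cyclic AMP response element) and CACGTG (the E-box bound by MYC and by TFEB, a regulator of lysosomal genes). CACGTG was present in 1 window of each of the 3 genes, 3 of their 9 windows, where 7.26% of all 35116 windows held it. Their windows held none of the other 3 motifs, which therefore overlap no match shown, and which 3.62% (TGATGNAA), 4.95% (TGACTCA) and 1.85% (TGACGTCA) of all windows held. The stretches around the matches are shown with CACGTG in capitals, each on the minus strand and ending before the start, from chr11:57515749-57515874 for SLC43A1, chr14:22816031-22816121 for SLC7A7 and chr14:23154457-23154582 for SLC7A8.
SLC43A1: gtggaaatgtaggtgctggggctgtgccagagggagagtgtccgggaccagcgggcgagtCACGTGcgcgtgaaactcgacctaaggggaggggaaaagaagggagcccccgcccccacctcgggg
SLC7A7: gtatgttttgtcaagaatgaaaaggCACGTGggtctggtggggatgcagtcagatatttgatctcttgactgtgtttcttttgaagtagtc
SLC7A8: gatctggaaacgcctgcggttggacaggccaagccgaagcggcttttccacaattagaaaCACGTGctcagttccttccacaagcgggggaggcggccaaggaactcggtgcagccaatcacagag

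The motif's first base lies 112, 225 and 129 bases before the start in SLC43A1, SLC7A7 and SLC7A8, counted from each window's own start. Over all 39 transporter genes with a window, 9 held CACGTG, among them SLC7A5 and SLC38A5, 4 held TGATGNAA (SLC1A3, SLC38A1, SLC3A2 and SLC7A1), 9 held TGACTCA, among them SLC3A2 and SLC38A1, and 0 held TGACGTCA. TGACTCA and CACGTG were each in 15.5% of the 58 windows of these genes, and in 4.95% and 7.26% of all windows. TGATGNAA was in 6.9% of the 58 and in 3.62% of all windows. Its matches in SLC3A2, SLC38A1 and SLC7A1 lie across or after the start. A match describes the letters of a window and not binding.

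The genes on either side of SLC43A3 differed in their pattern. In the RefSeq gene order SLC43A3 lies on chromosome 11 between PRG2, which encodes an eosinophil granule protein, and RTN4RL2, with SLC43A1 next after RTN4RL2. PRG2 was at 1.49 and 2.17 FPKM in AMO1 WT and 0.68 and 0.61 in AMO1 BtzR (log2-fold change -0.77, adjusted p = 0.00016, limma). In RPMI-8226 it was at 2.88 and 1.83 FPKM in WT and 0.28 and 0.16 in BtzR cells (-1.44, adjusted p = 2.2e-07), and it was listed at 0 in all 6 L363 libraries. In ARH-77 it was at 0.30 to 0.47 FPKM. Whether the adjacent genes share reads was not tested. RTN4RL2 went the other way in AMO1, at 4.18 and 3.58 FPKM in WT and 8.92 and 8.83 in BtzR cells (1.02, adjusted p = 1.7e-06). In RPMI-8226 RTN4RL2 was also higher in BtzR cells, at 25.7 and 26.3 FPKM against 17.2 and 17.3 in WT (0.56, adjusted p = 0.00033, limma). In L363 BtzR it was lower (-0.53, adjusted p = 0.0033), and in ARH-77 BtzR the log2-fold change was -0.046 (adjusted p = 0.87).

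SLC7A7 and SLC7A8 are both on chromosome 14 in the RefSeq order but are not adjacent. The genes beside SLC7A7, OXA1L and MRPL52, had log2-fold changes of 0.055 and 0.16 in RPMI-8226 BtzR (adjusted p = 0.61 and 0.40). In AMO1 BtzR they had 0.85 and 0.82 (adjusted p = 9.3e-07 and 0.00040), where SLC7A7 had -0.56. Of the tested genes near SLC7A8, RNF212B and HOMEZ had 0.14 and 0.53 in AMO1 BtzR (adjusted p = 0.46 and 0.0016).

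In L363 no transporter gene was called in BtzR or in CfzR cells (limma). Of the 26 genes 0 were called in L363 BtzR, where 1.02% of all tested genes were called higher and 1.05% lower, and 1 had an unadjusted p under 0.05. In L363 CfzR 0 were called, where 1.11% of all tested genes were called higher and 0.825% lower, and 2 had an unadjusted p under 0.05. In each comparison the 95% interval lay within a change of 1 in either direction for 25 of 26 genes. These include SLC7A8, SLC1A1 and SLC1A3, listed at 0 in every L363 library, and SLC43A3 near 0. For them little change could show once 1 FPKM was added. SLC6A9 was the exception (7.81 and 8.14 FPKM in WT, 3.87 and 5.96 in BtzR and 5.63 and 7.99 in CfzR cells). Its interval reached 1.16 to either side in every comparison and so could not lie within 1. The spread behind it was pooled over all 20 libraries, including the 2.69 and 21.3 FPKM of RPMI-8226 BtzR.

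SLC43A3 did not exceed 0.04 FPKM in any L363 library and SLC7A8 was listed at 0 in all 6. SLC43A1 was at 9.97 and 10.5 FPKM in WT, 8.90 and 9.52 in BtzR and 9.73 and 10.5 in CfzR cells. SLC38A5 was at 179 and 171 FPKM in WT, 169 and 153 in BtzR and 180.5 and 164 in CfzR cells, with log2-fold changes of -0.12 and -0.02 (adjusted p = 0.85 and 1, limma). SLC7A7, at 0.65 and 0.62 FPKM in WT and 0.23 and 0.20 in CfzR cells, had an adjusted p under 0.05 in the carfilzomib comparison (-0.43 ± 0.10, adjusted p = 0.013), and it was called there with a pseudocount of 0.1 FPKM (-1.22).

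The drugs were set against each other in L363, the line with both under its own label. Of the 26 genes 0 were called between CfzR and BtzR cells, with 2 at an unadjusted p under 0.05, where 0.94% of all tested genes were called higher and 0.535% lower in CfzR cells (limma). Both of these also had an adjusted p under 0.05. SLC7A7 was at 0.66 and 0.75 FPKM in BtzR and 0.23 and 0.20 in CfzR cells (log2-fold change -0.49 ± 0.10, adjusted p = 0.0065), and it was called with a pseudocount of 0.1 FPKM (-1.35). SLC43A2 was at 1.5 and 1.61 in BtzR and 0.86 and 0.91 in CfzR cells (-0.44 ± 0.093, adjusted p = 0.0083).

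In ARH-77 BtzR 0 of the 26 genes were called, with 7 at an unadjusted p under 0.05, where 0.955% of all tested genes were called higher and 0.649% lower (limma). For 24 of 26 genes the 95% interval lay within a change of 1 in either direction. These include SLC7A8 and SLC6A8, at most 0.07 FPKM in ARH-77, where little change could show once 1 FPKM was added. SLC6A9 could not be among them, as its interval reached 1.16 to either side in every comparison. The glutamate carrier SLC1A3 had the lowest adjusted p, at 2.08 and 2.04 FPKM in WT and 1.12 and 1.02 in BtzR cells (-0.56 ± 0.054, adjusted p = 5.5e-06). SLC6A6 was at 13.3 and 13.8 FPKM in WT and 9.35 and 10.1 in BtzR cells (-0.44 ± 0.13, adjusted p = 0.035). SLC43A3 was at 67.6 and 33.5 FPKM in WT and 50.4 and 49.1 in BtzR cells, which lie between the WT replicates.

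The bortezomib effect was then compared between the 4 lines. A moderated F test of the interaction gave an adjusted p under 0.05 for 13 of the 26 genes, where 71.1% of all tested genes had one (limma). For SLC43A3 (adjusted p = 4.3e-05) the log2-fold changes were -2.46 in AMO1, -1.82 in RPMI-8226, 0.062 in ARH-77 and -0.028 in L363, where the gene is near 0. For SLC43A1 (adjusted p = 0.0015) they were -0.98, 1.11, 0.19 and -0.14, opposite in AMO1 and RPMI-8226. For SLC7A7 (adjusted p = 6.9e-08) they were -0.56, 1.56, 0.18 and 0.061, again opposite in AMO1 and RPMI-8226.

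Among the highest genes the test did not reach its threshold for SLC7A5, SLC3A2, SLC38A5 or SLC38A2 (adjusted p = 0.12, 0.51, 0.33 and 0.10). SLC38A5 was at 211 and 170 FPKM in AMO1 WT and 124 and 148 in AMO1 BtzR, and at 269 and 198 in RPMI-8226 WT and 172 and 131 in RPMI-8226 BtzR, with log2-fold changes of -0.48 and -0.61 (adjusted p = 0.10 and 0.038).

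The libraries labelled AMO1 CfzR differed from AMO1 WT in 12 of the 26 genes, 2 higher and 10 lower, against the 7.88% and 9.21% of all tested genes. From L363 WT they differed in 0 of 26, with 3 at an unadjusted p under 0.05 (limma), and for 25 of 26 genes the 95% interval of the difference lay within 1 in either direction. SLC43A3 was at 0.04 and 0.28 FPKM in them, against 0 and 0.04 in L363 WT and 222 and 175 in AMO1 WT. SLC36A4 was at 4.85 and 4.33 FPKM, against 3.78 and 4.02 in L363 WT and 0 in AMO1 WT. SLC38A10 was at 36.4 and 39.1 FPKM, against 40.7 and 38.8 in L363 WT and 14.5 and 14.6 in AMO1 WT.

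The other genes called lower against AMO1 WT were SLC7A5, SLC3A2, SLC38A1, SLC7A1, SLC38A2, SLC43A1, SLC43A2, SLC6A9 and SLC6A6, with log2-fold changes from -2.04 for SLC43A1 to -1.0 for SLC6A6. For 5 of them the call rested on single libraries. Without replicate 1 of the libraries labelled AMO1 CfzR the log2-fold changes of SLC7A5, SLC38A1 and SLC6A9 were -0.89, -0.95 and -1.13 (adjusted p = 0.0091, 0.00034 and 0.19, limma), and without replicate 2 that of SLC6A6 was -0.99. Without replicate 1 of AMO1 WT SLC6A9 (adjusted p = 0.058) and SLC6A6 (-0.996, just short of the threshold) were not called, and without replicate 2 of AMO1 WT SLC7A5, SLC3A2 and SLC6A9 were not called (-0.88, -0.89 and -1.23, the last with adjusted p = 0.16). Because these libraries lay closer to L363 than to AMO1, none of these differences is read as an effect of carfilzomib in AMO1.

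The genes that act beside these carriers were counted in the same way. A list of 31 genes of lysosomal amino acid sensing (the Rag GTPases, Ragulator, GATOR, folliculin and sestrin genes with the mTORC1 core) was tested in full. It held 1 called gene in AMO1 BtzR, the leucine sensor relative SESN3 (0.10 and 0.17 FPKM in WT, 1.79 and 1.11 in BtzR cells), and 2 in RPMI-8226 BtzR, with 17 of the 31 at an unadjusted p under 0.05 in each. Of all tested genes 4.61% were called higher and 4.57% lower in AMO1 BtzR, and 5.91% and 7.92% in RPMI-8226 BtzR. An adjusted p under 0.05 was reached by 51.2% of all tested genes in AMO1 BtzR and 54.3% in RPMI-8226 BtzR (limma). An unadjusted p under 0.05 was reached by at least as many. In RPMI-8226 RRAGD, a Rag GTPase that relays amino acid supply to mTORC1, was at 4.64 and 5.04 FPKM in WT and 25.6 and 29.0 in BtzR cells (2.27 ± 0.10, adjusted p = 7.4e-11, limma). NPRL3, a GATOR1 subunit that restrains mTORC1, was at 27.1 and 29.4 in WT and 9.54 and 11.1 in BtzR cells (-1.37 ± 0.11, adjusted p = 1.2e-07). None was called in L363 BtzR, L363 CfzR or ARH-77 BtzR (limma), where 4, 3 and 11 of the 31 had an unadjusted p under 0.05. In these comparisons 11.2%, 8.47% and 13.6% of all tested genes had an adjusted p under 0.05. Between 0.649% and 1.11% of all tested genes were called in a given direction.

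Of 18 carriers of amino acids in other families 13 were tested. Of these 1 was called in AMO1 BtzR and 2 in RPMI-8226 BtzR, with 8 of the 13 at an unadjusted p under 0.05 in each. Among all tested genes 4.61% were called higher and 4.57% lower in AMO1 BtzR, and 5.91% and 7.92% in RPMI-8226 BtzR. An adjusted p under 0.05 was reached by 51.2% and 54.3% of all tested genes (limma), and an unadjusted one by at least as many. In AMO1 BtzR SLC25A29, a mitochondrial carrier of basic amino acids, was called higher (1.33 and 1.82 FPKM in WT, 4.16 and 4.12 in BtzR cells). In RPMI-8226 BtzR the aromatic amino acid carrier SLC16A10 was called lower (11.5 and 15.4 FPKM in WT, 5.68 and 5.91 in BtzR cells), as was the lysosomal histidine and peptide carrier SLC15A3 (2.10 and 1.31 in WT, listed at 0 in both BtzR libraries). In L363 BtzR, L363 CfzR and ARH-77 BtzR 0 were called (limma), with 3, 3 and 4 at an unadjusted p under 0.05. Of all tested genes 0.649% to 1.11% were called there in a given direction, and 11.2%, 8.47% and 13.6% had an adjusted p under 0.05.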

How the data were processed

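RNA extraction, library construction and sequencing (BGISEQ-500) were done by BGI. The authors deposited FPKM values to 2 decimals, which their processing notes tie to HISAT2 2.0.4, Bowtie2 2.2.5 and RSEM 1.2.12, with the genome build not given in the sources used here. No counts accompany them, so counting errors cannot be given. All 20 libraries were mapped to groups by their labels, which name no batch.

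Values were analysed as log2(FPKM + 1) with limma 3.58.1 in R 4.3.3, with a mean for each of 10 groups, a mean-variance trend, 10 residual degrees of freedom and Benjamini-Hochberg adjustment over 13089 genes. With 2 libraries a group an exact permutation test cannot go below p = 0.33. In data simulated for AMO1 BtzR against AMO1 WT, 200 of 200 genes changed by 1.5 (log2) were recovered among 11084 genes. The changed genes were drawn only from those well above the filter in AMO1 WT, with normally distributed noise. Recovery of low genes such as SLC7A7 and SLC7A8, and of changes near the fold threshold, was not covered. Figures and counts used Python 3.11.15 and pandas 2.3.3.

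Genes were named if called, among the 10 highest, a heavy chain or SLC38A9. Others named with values were chosen after these were seen. The members and lists were chosen with earlier results of these data known. Alternatives were another pseudocount, no filter, rescaling, quantile normalization, a replicate block, a fit of the compared libraries and leaving out each library. Some genes are not reported here.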

Additional observations from a re-analysis of the deposited data

Results flagged for a closer look

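The bortezomib effect differed between the 4 lines for 13 of the 26 tested genes by limma's interaction F test, a share below the 71.1% of all tested genes. The adjusted p was 2.9e-10 for SLC7A8, 6.9e-08 for SLC7A7, 2.3e-06 for SLC1A3, 2.7e-05 for SLC1A1 and 4.3e-05 for SLC43A3. It was 0.00011 for SLC6A8, 0.00017 for SLC43A2, 0.0004 for SLC36A1, 0.00048 for SLC38A1 and 0.0011 for SLC38A6. It was 0.0015 for SLC43A1, 0.0053 for SLC6A6 and 0.0088 for SLC7A1. SLC7A8 passed the filter through AMO1 BtzR alone, so a difference was built in and its p lends no support.

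The differences took several forms. SLC7A8 and SLC1A1 had log2-fold changes of 1.73 and 0.65 in AMO1 and between -0.13 and 0.03 in the other lines, while SLC1A3 had 0.27 in AMO1 and -0.56 in ARH-77. SLC6A8 had differences of 0.94 in AMO1 and 0.97 in RPMI-8226 and of -0.16 in L363 and -0.01 in ARH-77. SLC36A1 was at 0.83 in AMO1 and 0.22 or less in the other lines, and SLC38A6 at 0.81 in AMO1 and -0.48 in RPMI-8226. SLC38A1 was at -0.88 in AMO1, and SLC7A1 at -0.35 in AMO1 and 0.28 in RPMI-8226. Several of these differences lie below the fold threshold, and those of SLC1A1 and SLC1A3 in the myeloma lines are at levels under 1 FPKM.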

How the results depend on the processing

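The 17 called changes of single genes were recomputed under the alternatives that apply to each, which gave 175 values. None reversed, 162 stayed called and 13 did not. Using no filter, a replicate block or fits of fewer groups leaves each log2-fold change as it was. A reversal was not possible there, and only the adjusted p could move. A pseudocount of 0.1 FPKM moved counts by more than 1.5 times, with 7 genes in AMO1 BtzR, 1 in L363 CfzR against L363 WT and 1 in L363 CfzR against L363 BtzR (SLC7A7 in both), as low genes weigh more on that scale. Leaving out 1 library in turn gave 2 to 5 genes in AMO1 BtzR (5 without its replicate 2), 3 to 4 in RPMI-8226 BtzR and 9 to 11 in the libraries labelled AMO1 CfzR against AMO1 WT, and 0 in each of the other comparisons of groups. With 1 library left, a group was assumed to vary like the others. Without the libraries labelled AMO1 CfzR, a fit chosen after the data were seen, the counts in AMO1 BtzR and RPMI-8226 BtzR were 2 and 3 as before. With a replicate block the 17 changes stayed called, and SLC6A9 was added in AMO1 BtzR (adjusted p = 0.048, limma) for 3 genes. The fit of the compared libraries alone also called it (adjusted p = 0.018). Replicate numbers are shared between groups, but deviations of same-numbered libraries correlated at -0.0055 in AMO1 BtzR and at 0.12 to 0.24 elsewhere, with 2 pairs each, so the numbers were not taken as pairs. Rescaling moved the median of all genes by less than 0.1 (log2) in every comparison. Depth is unknown, and a gene listed at 0 may be below detection.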
